A study of Mus musculus with 23 samples.

Results

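The epidermal growth factor (EGF) receptor family was followed through 10 genes: the 4 receptors Egfr, Erbb2, Erbb3 and Erbb4, and the 6 ligands Areg, Ereg, Tgfa, Hbegf, Btc and Nrg1. They were chosen by name out of 24918 gene symbols in the series, with earlier results of these data known. All 10 were found in each of its 3 tables of RPKM, a read density scaled to gene length and to the reads of the library. The RNA came from 23 libraries of sorted mouse mammary cells in 9 groups. From wild-type C57BL6J glands came 4 populations with 2 libraries each: fMaSC, the fetal mammary stem cells, sorted at embryonic day 18, and the basal, luminal progenitor and mature luminal cells of adults. PY230 is a C57BL6J mouse mammary tumour line, known to come from a mouse with the polyoma middle T transgene. Its cells were transplanted into syngeneic adult mice, and the tumours gave basal SOX10 high, luminal SOX10 high and luminal SOX10 low cells with 2 libraries each. Spontaneous tumours of adult FVB C3-1-TAg mice, in which a rat prostatein promoter drives the SV40 T antigens in mammary epithelium, supplied 9 libraries titled basal, of which 5 are SOX10 high and 4 SOX10 low. Every PY230 library thus stems from 1 cell line, and every C3-1-TAg tumour carries the viral oncogene, SOX10 low cells included. Libraries sharing a group are described as biological replicates, but none is tied to an animal or tumour, so p-values measure the spread between these libraries.

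EGF family ligands are made as membrane-bound precursors, which metalloproteases such as ADAM17 and ADAM10 cut free. A ligand makes its receptor pair with a second receptor, and the paired kinases signal through RAS and ERK and through PI3 kinase and AKT. EGFR binds amphiregulin (Areg), epiregulin (Ereg), transforming growth factor alpha (Tgfa), heparin-binding EGF-like growth factor (Hbegf) and betacellulin (Btc), while ERBB3 and ERBB4 bind neuregulin 1 (Nrg1). ERBB2 has no known ligand of its own and is the favoured partner of the others, and ERBB3 has a weak kinase and signals mainly through its partner. In the mammary gland, amphiregulin is known as the ligand through which oestrogen drives duct growth, made by hormone-sensing luminal cells and acting on EGFR in other cells.

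The stretches just upstream of 4 members are shown because the results turn on these genes: Areg and Btc, neighbours on mouse chromosome 5 whose RNA was highest in the same normal cells, and Egfr and Erbb2, which moved oppositely between PY230 fractions. Each is the 250 bases before the annotated RNA start, 5′ to 3′ on the gene's strand, from RefSeq on GRCm38.p6, and is matched by symbol since the tables were made on mm9. Such windows were at hand for 6 of the 10 members.
Areg promoter (chr5:91139349-91139598, plus strand): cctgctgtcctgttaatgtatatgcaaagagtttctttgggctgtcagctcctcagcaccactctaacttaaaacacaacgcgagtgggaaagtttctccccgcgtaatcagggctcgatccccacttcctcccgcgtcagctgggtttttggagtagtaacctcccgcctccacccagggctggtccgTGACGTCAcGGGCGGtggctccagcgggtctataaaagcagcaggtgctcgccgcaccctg
Btc promoter (chr5:91402995-91403244, minus strand): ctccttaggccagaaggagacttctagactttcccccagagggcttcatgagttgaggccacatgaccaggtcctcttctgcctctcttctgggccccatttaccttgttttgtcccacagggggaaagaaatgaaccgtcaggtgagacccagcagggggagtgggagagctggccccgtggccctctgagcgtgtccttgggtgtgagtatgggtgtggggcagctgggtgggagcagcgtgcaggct
Egfr promoter (chr11:16751953-16752202, plus strand): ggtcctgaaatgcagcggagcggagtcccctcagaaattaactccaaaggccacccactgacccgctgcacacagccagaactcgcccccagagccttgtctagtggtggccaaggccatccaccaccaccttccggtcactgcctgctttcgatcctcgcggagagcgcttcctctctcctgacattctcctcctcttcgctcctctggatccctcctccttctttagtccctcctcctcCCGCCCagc
Erbb2 promoter (chr11:98412234-98412483, plus strand): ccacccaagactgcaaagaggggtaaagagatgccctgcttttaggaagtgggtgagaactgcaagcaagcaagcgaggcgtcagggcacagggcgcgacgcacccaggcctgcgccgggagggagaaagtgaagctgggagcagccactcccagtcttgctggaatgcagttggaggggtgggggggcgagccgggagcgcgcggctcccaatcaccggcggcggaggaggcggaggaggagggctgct
Capitals mark matches to any of 6 motifs searched on both strands: the cyclic AMP response element (CRE) TGACGTCA, the AP-1 motif TGANTCA, the GC box GGGCGG, the SOX motifs ACAAAG and ACAATG, and the E-box CACGTG. The Areg window holds a CRE from base -61 to base -54, counted back from the RNA start, and a GC box from -52 to -47. The CRE letters occur in 1.55% of 32851 windows of the same length and the GC box letters in 32.7%. The Egfr window holds 1 GC box, in reverse, from -9 to -4, and none of the 6 motifs was found in the Btc and Erbb2 windows. The SOX letters ACAAAG and ACAATG, in 16.5% and 10.7% of all windows, are in none of these 4. Areg, Btc, Egfr and Erbb2 windows are 57.2%, 59.6%, 60.8% and 66.0% G or C, all above the median of 52.4% over all windows.

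The number of genes at or above 1 RPKM ran from 10056 to 12504 per library. RPKM keeps no read totals, so the depth behind a value is unknown, and counting intervals cannot be given. Levels were compared within a table only, since the tables were made separately. With 2 libraries a group, genes can lie apart without overlap by chance. The share of all genes that do so was not counted. The labels were checked against markers. The summed RPKM of 7 basal markers was 831 to 1849 in basal libraries and 10.7 to 17.9 in both luminal populations. Luminal progenitor markers (6 genes) summed to 4011 to 4641 in luminal progenitors and 46.0 to 137 in basal and mature luminal libraries. Mature luminal markers (6 genes) summed to 5156 to 5520 in mature luminal libraries, but also to 899 to 1114 in basal and 656 to 880 in luminal progenitor libraries. Sox10 RNA followed its labels in the tumours, with no overlap between high and low libraries. In the C3-1-TAg table several libraries were nearest to one of the other SOX10 group: SOX10 high replicate 1 to low replicate 2 (Pearson r = 0.98 across 12817 genes), and high replicate 2 to low replicate 3 (r = 0.968).

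In the normal gland the receptors sorted the cells differently. Egfr was the main receptor RNA of adult basal cells and luminal progenitors and was near 0 in mature luminal cells, Erbb3 was lowest in basal cells, Erbb2 stayed within a narrow range, and Erbb4 was scarcely detected. Egfr stood at 15.0 and 32.8 RPKM in the basal libraries, 13.7 and 11.3 in luminal progenitors, 1.63 and 1.94 in fMaSC, and 0.17 and 0.65 in mature luminal cells. All 4 basal and luminal progenitor libraries lay above all 4 others. In sorted bulk cells, fewer cells of a type and less RNA per cell cannot be told apart. On the log2(RPKM + 1) scale, used for every test and understating changes near 0, Egfr was higher in basal than in mature luminal cells by 4.07 ± 0.38 (SE, limma adjusted p = 0.000265). In fMaSC it was lower than in basal cells (log2 fold change -3.06 ± 0.38, adjusted p = 0.000487) and than in luminal progenitors (-2.27 ± 0.38, adjusted p = 0.00221). Neighbours in this order were less clear. Basal cells against luminal progenitors gave 0.79 ± 0.38 (adjusted p = 0.144), which passed without basal replicate 1 (1.33, adjusted p = 0.00956). For Egfr in fMaSC against mature luminal cells the difference was 1.01 ± 0.38 (adjusted p = 0.0547). It passed with a pseudocount of 0.1 (2.08, limma adjusted p = 0.0201). Over all alternatives this difference ran from 0.38 to 2.08, and the median gene was itself higher in fMaSC by 0.53.

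Erbb3, which encodes the neuregulin receptor with a weak kinase, was at 0.73 and 0.79 RPKM in basal libraries. Its other normal libraries ran from 3.01 to 4.80: 3.88 and 4.80 in fMaSC, 3.94 and 4.75 in luminal progenitors and 3.43 and 3.01 in mature luminal cells. Basal libraries therefore lay below every other library, and the other 3 populations lay close together. The fold change of basal cells was -1.60 ± 0.22 against luminal progenitors (adjusted p = 0.00205) and -1.26 ± 0.22 against mature luminal cells (adjusted p = 0.00333), and Erbb3 was higher in fMaSC than in basal cells by 1.59 ± 0.22 (adjusted p = 0.00077).

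Erbb2 ranged only from 2.70 to 6.11 RPKM over the 8 normal libraries, highest in fMaSC (5.62 and 6.11), then luminal progenitors (4.62 and 4.28). Basal cells (2.97 and 3.47) and mature luminal cells (2.70 and 3.61) lay below these and overlapped. Erbb2 was higher in fMaSC than in basal cells by 0.70 ± 0.23 (limma adjusted p = 0.0291) and than in mature luminal cells by 0.73 ± 0.23 (adjusted p = 0.0269). The median gene was itself higher in fMaSC by 0.27 and 0.53. Once the libraries were quantile normalized, Erbb2 no longer passed (0.35, adjusted p = 0.236, and 0.17, adjusted p = 0.575), and both calls were also lost without fMaSC replicate 1 (adjusted p = 0.102 and 0.098) or replicate 2 (0.141 and 0.137). Of the Erbb2 calls, that against basal cells further needed basal replicate 1 (0.0508 without it) and that against mature luminal cells their replicate 1 (0.148). Erbb4, a second neuregulin receptor, was at 1.26 and 0.43 RPKM in luminal progenitors and at most 0.21 in the other 6 normal libraries. It missed the filter of 1 RPKM in at least 2 libraries and was not tested in any table.

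These levels gave each population its own receptor make-up. RPKM is scaled to gene length, so the 4 receptors can be set against their sum. Egfr made up 84.1 ± 5.5% (SD, n = 2) of the summed receptor RPKM in basal cells and 56.3 ± 2.6% in luminal progenitors. In fMaSC it was 14.9 ± 0.3%, with Erbb2 at 49.0 ± 2.2% and Erbb3 at 36.0 ± 1.7%. Mature luminal cells held 5.77 ± 4.4% Egfr, 46.3 ± 4.8% Erbb2 and 47.9 ± 9.2% Erbb3. Their receptor sum was also the lowest, 6.79 ± 0.69 RPKM, against 12.0 ± 1.2 in fMaSC, 22.1 ± 1.9 in luminal progenitors and 28.0 ± 13 in basal cells.

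**Figure D1:**
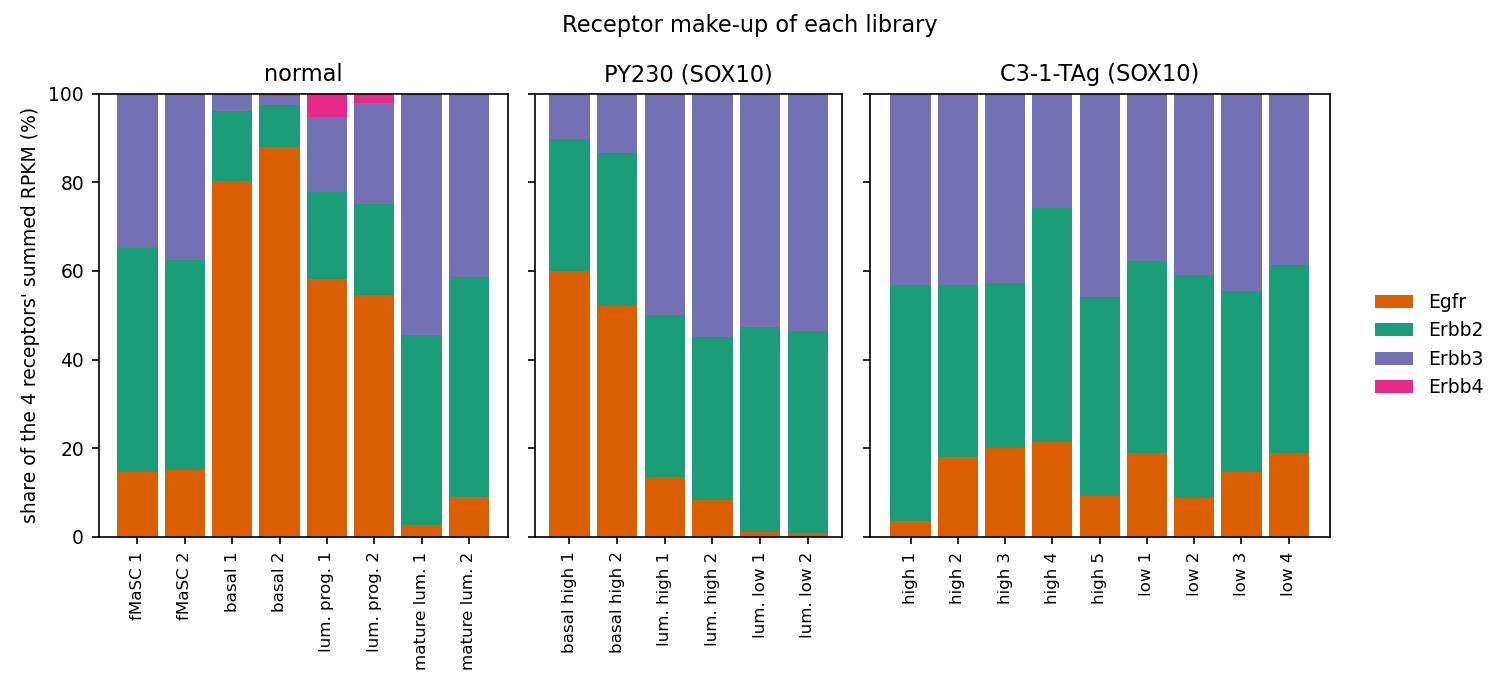
Share of each receptor in the summed RPKM of Egfr, Erbb2, Erbb3 and Erbb4, as stacked bars in percent for each of the 23 libraries, in separate panels for the normal, PY230 and C3-1-TAg tables. Egfr fills most of the bar in basal and luminal progenitor libraries and in PY230 basal cells, and little of it in mature luminal cells and PY230 luminal SOX10 low cells.

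Of the 3 genes whose normal profile lay nearest to that of Egfr, the nearest was Fam167a, followed by Zfp36l2, which encodes an RNA-binding protein that destabilizes messages, and Gm527. Their root mean square difference from Egfr over the 8 libraries, each gene centred on its mean, was 0.35, 0.35 and 0.50 log2 units, beside an SD of 1.79 for the Egfr profile. For Erbb3 the nearest were Stard3nl, Zfyve21 and Creb3 (0.15, 0.15 and 0.17, profile SD 0.71). Erbb2 varied so little (profile SD 0.34) that its nearest genes, Tdrd3, Cdk7 and Cnot2 (0.07, 0.13 and 0.13), are genes of likewise flat profile.

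Among the ligands, Areg and Btc were highest in mature luminal cells, Ereg and Nrg1 in basal cells and Tgfa in fMaSC, while Hbegf was lowest in mature luminal cells. Areg had the highest RPKM of the 10 members in every adult normal library, while Tgfa was level with it in fMaSC. It reached 1940.2 and 1414 RPKM in mature luminal cells, followed by 295 and 195 in luminal progenitors, 290.2 and 118 in basal cells, and 51.8 and 50.9 in fMaSC. Mature luminal cells lay above all other libraries and fMaSC below them, and basal cells overlapped luminal progenitors. Areg was higher in mature luminal cells than in luminal progenitors by 2.78 ± 0.42 (limma adjusted p = 0.0047). Against mature luminal cells its fold change was -3.15 ± 0.42 in basal cells (adjusted p = 0.00113) and -4.98 ± 0.42 in fMaSC (adjusted p = 8.11e-05). Areg made up 97.1 ± 0.2% of the summed ligand RPKM in mature luminal cells, 71.8 ± 4.5% in luminal progenitors, 54.1 ± 14% in basal cells and 37.7 ± 1.7% in fMaSC. The lower level of Areg in fMaSC than in basal cells (-1.83 ± 0.42, adjusted p = 0.00735) missed the threshold without fMaSC replicate 1 (0.0577) or replicate 2 (0.059). Basal cells against luminal progenitors gave -0.37 ± 0.42, and -1.01 without basal replicate 1 (adjusted p = 0.0318). Basal replicate 1 held more of the luminal keratin Krt19 than replicate 2 (386 and 121 RPKM, against 3126 and 2642.5 in mature luminal cells), and its part in the basal Areg values was not tested.

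Btc, a ligand of EGFR and ERBB4, stood at 45.9 and 33.6 RPKM in mature luminal cells, followed by 19.2 and 10.7 in luminal progenitors, 5.39 and 4.08 in basal cells, and 1.66 and 0.77 in fMaSC. These 4 populations did not overlap, and all 6 pairs passed the test. The smallest step, mature luminal over luminal progenitor, was 1.39 ± 0.35 (adjusted p = 0.0308). That step in Btc was lost without luminal progenitor replicate 2 or either mature luminal library (adjusted p = 0.149, 0.168 and 0.0893), with no filter (0.0583) and with a pseudocount of 0.1 (0.0612). The higher Btc in luminal progenitors than in basal cells (-1.43 ± 0.35 for basal, adjusted p = 0.0184) was lost without luminal progenitor replicate 1 (0.103), and the lower Btc in fMaSC than in basal cells without fMaSC replicate 2 (0.0937).

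In the GENCODE annotation of GRCm38, Epgn, Ereg, Areg and Btc follow each other with no other protein-coding gene between them, flanked by Mthfd2l and Parm1. Epgn encodes epigen, a further EGFR ligand from the list of other ligands. It was at 838 and 827 RPKM in mature luminal cells, followed by 241 and 97.7 in luminal progenitors, 182 and 88.7 in basal cells, and 33.0 and 29.5 in fMaSC. Epgn was higher in mature luminal cells than in luminal progenitors by 2.43 ± 0.46 (adjusted p = 0.011). The order of the 4 populations by mean was the one seen for Areg. Ereg, between Epgn and Areg, had another pattern: 24.2 and 26.6 RPKM in basal cells and at most 0.60 in the other 6 normal libraries. It reached 1 RPKM in the basal libraries alone, so it passed the filter through the group where it was high, and its fold changes are values only: -4.33 ± 0.26 in fMaSC against basal cells, and 4.34 ± 0.26 and 4.58 ± 0.26 in basal cells against luminal progenitors and mature luminal cells. The flanking gene Mthfd2l, a mitochondrial folate enzyme, had means from 11.3 to 19.9 RPKM in the 4 populations and was higher in fMaSC than in mature luminal cells (0.76 ± 0.26, adjusted p = 0.037). Parm1 had means from 2.52 to 6.64 RPKM and was lower in fMaSC than in basal cells (-1.12 ± 0.23, adjusted p = 0.00488), luminal progenitors (-0.66 ± 0.23, adjusted p = 0.0486) and mature luminal cells (-1.01 ± 0.23, adjusted p = 0.00789), as Areg, Btc and Epgn were.

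Nrg1, the neuregulin that binds ERBB3 and ERBB4, fell from basal cells through fMaSC and luminal progenitors to mature luminal cells. It was at 45.1 and 68.4 RPKM, 16.5 and 15.2, 2.50 and 1.75, and 0 and 0.21 in that order, with no overlap between any populations. Nrg1 was higher in basal cells than in luminal progenitors by 4.19 ± 0.28 (adjusted p = 0.000118) and than in mature luminal cells by 5.68 ± 0.28 (adjusted p = 3.79e-05). The basal libraries, with the most Nrg1, were those with the least Erbb3, the receptor it binds. The difference of Nrg1 between mature luminal cells and luminal progenitors, -1.49 ± 0.28 (adjusted p = 0.0102), missed the threshold without luminal progenitor replicate 1 (0.0683) or mature luminal replicate 1 (0.067).

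Tgfa, an EGFR ligand, was highest in fMaSC at 42.4 and 53.1 RPKM. Basal libraries gave 10.4 and 21.5, luminal progenitors 14.0 and 7.04, and mature luminal cells 4.59 and 6.04. Both fMaSC libraries lay above the other 6, and basal cells and luminal progenitors overlapped. Tgfa was higher in fMaSC than in basal cells by 1.60 ± 0.41 (adjusted p = 0.0118), than in luminal progenitors by 2.14 ± 0.41 (adjusted p = 0.0041) and than in mature luminal cells by 2.95 ± 0.41 (adjusted p = 0.000778). The first was lost without fMaSC replicate 1 (0.0576) or replicate 2 (0.0948) and the second without fMaSC replicate 2 (0.0506). Tgfa passed in basal over mature luminal cells (1.35 ± 0.41, adjusted p = 0.0289), but not without basal replicate 2 (0.107) or either mature luminal library (0.143 and 0.0723), after quantile normalization (0.0553) or with no filter (0.0576).

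Hbegf, an EGFR and ERBB4 ligand, was at 98.9 and 45.6 RPKM in luminal progenitors, 76.0 and 30.9 in basal cells, 20.7 and 18.8 in fMaSC, and 4.17 and 3.74 in mature luminal cells. Luminal progenitors and basal cells overlapped and the other populations did not. Against luminal progenitors, Hbegf was lower in mature luminal cells (-3.79 ± 0.47, adjusted p = 0.00246) and in fMaSC (-1.72 ± 0.47, adjusted p = 0.0191). The difference to basal cells was -1.26 ± 0.47 in fMaSC (adjusted p = 0.051), and -1.90 without basal replicate 2 (0.00742). The Hbegf call for fMaSC against luminal progenitors was lost without fMaSC replicate 1 (0.0992), fMaSC replicate 2 (0.118) or luminal progenitor replicate 1 (0.121), and its call over mature luminal cells (2.06 ± 0.47, adjusted p = 0.00779) without fMaSC replicate 1 (0.066) or replicate 2 (0.0558). The summed RPKM of 10 immediate early genes, which respond to tissue dissociation, ran alongside: 2562 to 5160 in luminal progenitors, 1407 to 3314 in basal cells, 1075 to 1100 in fMaSC and 725 to 952 in mature luminal cells. Their part in the Hbegf differences was not tested.

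**Figure D2:**
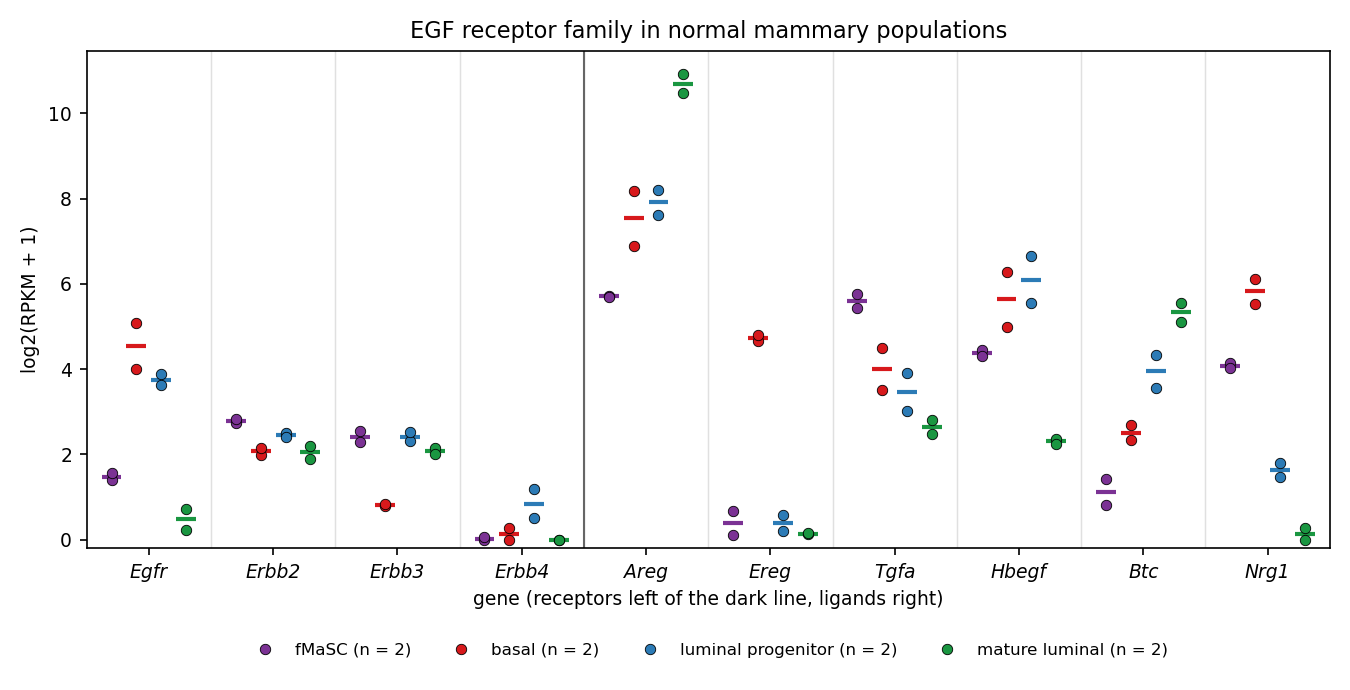
Levels of the 10 members in the normal gland as log2(RPKM + 1), each point 1 library and each bar the mean of 2, for fMaSC, basal, luminal progenitor and mature luminal cells. Areg reaches its highest points in mature luminal cells, where Egfr, Hbegf and Nrg1 have their lowest, and Ereg is high in basal cells only.

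Counted over the family, fMaSC against basal cells called 8 of the 9 members tested, 3 higher and 5 lower, where 60.3% of all 12553 genes tested were called (36.9% higher and 23.4% lower). Against luminal progenitors fMaSC had 2 members higher and 4 lower, where 50.6% of genes were called (35.5% higher and 15% lower). Against mature luminal cells they had 4 higher and 2 lower, where 56.4% were called (41.7% higher and 14.7% lower). Basal cells had 2 members higher and 2 lower than luminal progenitors, where 35.5% were called (21% higher and 14.5% lower). They had 5 higher and 3 lower than mature luminal cells, where 48.6% were called (28.8% higher and 19.8% lower). Mature luminal cells had 2 higher and 3 lower than luminal progenitors, where 22.1% were called (8.63% higher and 13.4% lower). Ereg is among those called wherever basal cells were compared. With 9 members and so many genes called, nothing about the family as a whole is read from these counts. Without fMaSC replicate 1 or replicate 2 the members called between fMaSC and basal cells were 5 and 4, and without mature luminal replicate 1 those between mature luminal cells and progenitors were 3. Red cell markers (5 genes) summed to 260.1 to 333 RPKM in fMaSC and at most 9.40 in the adult libraries. The Schwann cell and melanocyte list (6 genes) summed to 40.0 to 47.7 RPKM in fMaSC and 18.7 to 38.6 in the adult libraries. Of the 5 tested on that list, 3 were called higher and 1 lower in fMaSC against each adult population. Its gene Dct was at 17.9 and 22.9 in fMaSC and 0 elsewhere. Dct thus passed the filter through fMaSC alone, and its differences are values only. Fibroblast markers (6 genes) summed to 82.8 to 99.7 RPKM in fMaSC and at most 58.2 in the adult libraries. Of these, 5 of 6 were called higher in fMaSC against each adult population, and the other was called lower against basal cells. The shares of all genes called higher in fMaSC are given above. Fat cell markers (6 genes) summed to 207 to 231 in fMaSC, 65.8 to 233 in basal and at most 48.9 in luminal libraries, with 4 of 5 tested called higher against basal cells and luminal progenitors and 5 against mature luminal cells. Of the fat cell list, Retn, Plin1 and Cidec were at 0 in every adult library. Those of them that were tested passed the filter through fMaSC alone, so their calls are values only. The part of all these markers in the fMaSC differences was not tested.

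The rest of the pathway was read from 7 lists of 73 genes. The list of ERK feedback and early target genes (16 genes, all tested) was mostly lower in mature luminal cells. In basal against mature luminal cells 11 rose and 1 fell, where 28.8% and 19.8% of all genes did (median log2 fold change 2.02, all genes 0.12). In fMaSC against mature luminal cells 13 rose and 1 fell, where 41.7% and 14.7% of all genes did (median 2.17, all genes 0.53). In mature luminal cells against luminal progenitors 1 rose and 9 fell, where 8.63% and 13.4% did (median -1.71, all genes -0.04). Spry2, a feedback inhibitor of receptor kinase signalling, was at 5.48 and 6.72 RPKM in mature luminal cells, and between 49.7 and 134 in the other 6 libraries. Its difference to luminal progenitors was -3.76 ± 0.40 (adjusted p = 0.0014). Etv5, an ETS factor induced by ERK, was instead high in fMaSC alone, at 69.2 and 73.3 RPKM against at most 7.42 elsewhere, 3.20 ± 0.26 above basal cells (adjusted p = 9.52e-05). Egr1 stands in this list and among the immediate early genes, whose sums moved with it as given above, and their part was not tested.

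Among genes that restrain the receptors, Errfi1 encodes an inhibitor that binds the kinase domains of EGFR and ERBB2. It was at 1072 and 947 RPKM in basal cells and 689 and 762 in luminal progenitors, the populations with most Egfr, against 191 and 208 in mature luminal cells and 178 and 193 in fMaSC. Errfi1 was higher in basal than in mature luminal cells by 2.33 ± 0.18 (adjusted p = 0.000121). Over the list of receptor restraint, 7 of 11 genes rose and 1 fell in that comparison (28.8% and 19.8% of all genes; median 1.07, all genes 0.12), Lrig3 among the risen. In basal cells against luminal progenitors 4 of the 11 rose and 0 fell, where 35.5% of all genes were called (21% higher and 14.5% lower). In mature luminal cells against luminal progenitors 1 rose and 3 fell, where 22.1% were called (8.63% higher and 13.4% lower). Nothing is read from counts this small. In fMaSC 1 rose and 5 fell against basal cells, 1 and 2 against luminal progenitors and 3 and 1 against mature luminal cells, at or below the shares of all genes called in either direction given above. Of 7 genes for ligand release, Adam10, which cuts Btc and other precursors, was highest where Areg and Btc were: 221 and 271 RPKM in mature luminal cells and 61.2 to 96.6 in the other 6 libraries. Adam10 was higher there than in luminal progenitors by 1.86 ± 0.18 (limma adjusted p = 0.00111). The list did not move with it: 2 of the 7 rose and 2 fell in that comparison (8.63% and 13.4% of all genes). Adam17 was highest in luminal progenitors, at 53.7 and 62.5 RPKM, and at 9.81 and 44.8 in mature luminal cells. Adam12, another metalloprotease, differed widely between the basal libraries, at 4.77 and 42.7 RPKM, and was at most 1.48 elsewhere. Over all 7 lists, 35 genes rose and 6 fell of 70 tested in basal against mature luminal cells (28.8% and 19.8% of all genes). In basal cells against luminal progenitors 19 rose and 3 fell (21% and 14.5% of all genes), and in mature luminal cells against luminal progenitors 6 rose and 20 fell (8.63% and 13.4%). In fMaSC the numbers were 14 and 27 against basal cells (36.9% and 23.4%), 17 and 15 against luminal progenitors (35.5% and 15%) and 29 and 13 against mature luminal cells (41.7% and 14.7%). The genes called in either direction were no larger a share than among all genes in fMaSC against basal cells and against luminal progenitors. The same held for basal cells against luminal progenitors.

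The PY230 tumour fractions showed receptors moving in opposite directions. PY230 basal SOX10 high cells had the most Egfr and Nrg1 and the least Erbb2, Erbb3 and Areg, luminal SOX10 low cells the reverse, and luminal SOX10 high cells lay between. Egfr was at 18.9 and 15.5 RPKM in basal SOX10 high, 9.24 and 7.06 in luminal SOX10 high and 1.04 and 0.96 in luminal SOX10 low cells. Erbb3 took the opposite course: 3.25 and 3.99, 34.0 and 45.9, and 52.4 and 62.3. Erbb2 went with Erbb3, at 9.39 and 10.3, 25.1 and 30.8, and 46.2 and 53.3 RPKM. None of these 3 receptors overlapped between any of the fractions, though the share of all genes without overlap was not counted. Erbb4 stayed at or below 0.25 RPKM in every PY230 library.

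Within the luminal fraction, SOX10 high against low cells asked how the family differs with SOX10. Of 8 members tested, 2 rose and 1 fell, where 22.6% of 13136 genes were called (12.6% higher and 10% lower). Egfr rose by 2.18 ± 0.18 (limma adjusted p = 0.00208), Nrg1 by 1.04 ± 0.21 (adjusted p = 0.0212), and Erbb2 fell by 0.81 ± 0.15 (adjusted p = 0.016). Nrg1 was at 3.91 and 2.76 RPKM in SOX10 high and 1.39 and 0.83 in SOX10 low cells. Erbb3 gave -0.52 ± 0.19 (adjusted p = 0.0883), and Areg -1.65 ± 0.70 (adjusted p = 0.137). Areg was at 64.0 and 237 RPKM in SOX10 high and 547 and 276 in SOX10 low cells, 2 pairs that spread widely without overlapping. Egfr passed in every alternative run. The Erbb2 call was lost without SOX10 high replicate 1 (0.0576), low replicate 1 (0.0558) or low replicate 2 (0.113), and the Nrg1 call without high replicate 1 (0.0923) or low replicate 2 (0.116). Without SOX10 high replicate 2, Erbb3 (-0.73, adjusted p = 0.0321), Areg (-2.58, adjusted p = 0.0373) and Btc (-0.93, adjusted p = 0.0296) passed as well. The number of members called thus changed as single libraries were left out, as did the number over all genes. Markers moved with the same labels: the mature luminal sum was 346 to 603 RPKM in SOX10 high and 1296 to 1706 in SOX10 low cells, and the luminal progenitor sum 868 to 1946 and 145 to 152. Immune markers (8 genes) summed to 29.8 to 35.2 and 13.7 to 17.4 RPKM, with 2 of 4 tested called higher. Their part in the receptor differences was not tested.

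Basal SOX10 high against luminal SOX10 high cells compared fractions with like Sox10 RNA (72.0 and 78.3 against 101 and 66.9 RPKM). All 8 members tested were called, 3 higher and 5 lower, where 42% of all genes were called (13.8% higher and 28.2% lower). Nrg1 rose most, from 3.91 and 2.76 to 59.9 and 48.2 RPKM (3.67 ± 0.21, adjusted p = 9.38e-05), with Egfr (1.00 ± 0.18, adjusted p = 0.00536) and Tgfa (0.76 ± 0.14, adjusted p = 0.00549). Erbb3 fell by 3.14 ± 0.19 (adjusted p = 9.38e-05) and Erbb2 fell by 1.41 ± 0.15 (adjusted p = 0.000689). Areg was at 7.71 and 21.5 RPKM in basal cells, a fold change of -3.15 ± 0.70 (limma adjusted p = 0.0122). Btc was at 0.08 and 0.305 against 1.19 and 2.16 (-1.15 ± 0.23). It reached 1 RPKM in the luminal libraries alone, so it passed the filter through the fractions where it was high. The fold changes of Btc in basal cells, and its place among the members called there, are therefore values only. Hbegf differed least, 8.63 and 8.92 against 14.3 and 11.7 RPKM (-0.51 ± 0.16, adjusted p = 0.0433). The median gene was itself lower in basal cells by a log2 fold change of -0.21, and Hbegf missed the threshold after quantile normalization (-0.31, adjusted p = 0.137), with no filter (0.0634), and without either basal library (0.155 and 0.125) or luminal replicate 1 (0.152). Without basal replicate 1 the calls of Areg (adjusted p = 0.0863) and Btc (0.0514) were lost too, leaving 5 members called.

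Basal SOX10 high against luminal SOX10 low cells, which differ in both labels and share their libraries with the comparisons above, had 2 members higher and 4 lower of 8, where 55.2% of all genes were called (21.8% higher and 33.4% lower). Egfr was higher by 3.18 ± 0.18 (adjusted p = 4.23e-05) and Nrg1 by 4.71 ± 0.21 (adjusted p = 3.04e-05). Erbb3 gave -3.66 ± 0.19, Erbb2 -2.23 ± 0.15 and Areg -4.80 ± 0.70, all with limma adjusted p at or below 0.00142. Btc, also among those called, gave -1.82 ± 0.23, a value only since it passed the filter through the luminal fractions alone. Tgfa, at 13.4 and 11.6 RPKM in basal and 9.50 and 9.98 in luminal SOX10 low cells, gave 0.33 ± 0.14 (adjusted p = 0.0814), and passed after quantile normalization (0.49, adjusted p = 0.0176). Hbegf gave -0.42 ± 0.16 (adjusted p = 0.0657). Ereg was at most 0.425 RPKM in the PY230 libraries and was not tested there.

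Egfr thus made up 56.0 ± 5.6% (SD, n = 2) of the summed receptor RPKM in PY230 basal SOX10 high cells, 10.9 ± 3.6% in luminal SOX10 high and 0.933 ± 0.15% in luminal SOX10 low cells. Erbb3 made up 11.8 ± 2.2%, 52.2 ± 3.6% and 53.0 ± 0.6%. The receptor sums were 30.7 ± 1.3, 76.3 ± 11 and 108 ± 12 RPKM in the same order, and these sums were not tested. The basal marker sum was 2425 to 2805 RPKM in basal cells and 29.2 to 92.8 in both luminal fractions, and the luminal keratin sum 277 to 501, 3186 to 4822 and 9377 to 9959 in the order above.

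**Figure D3:**
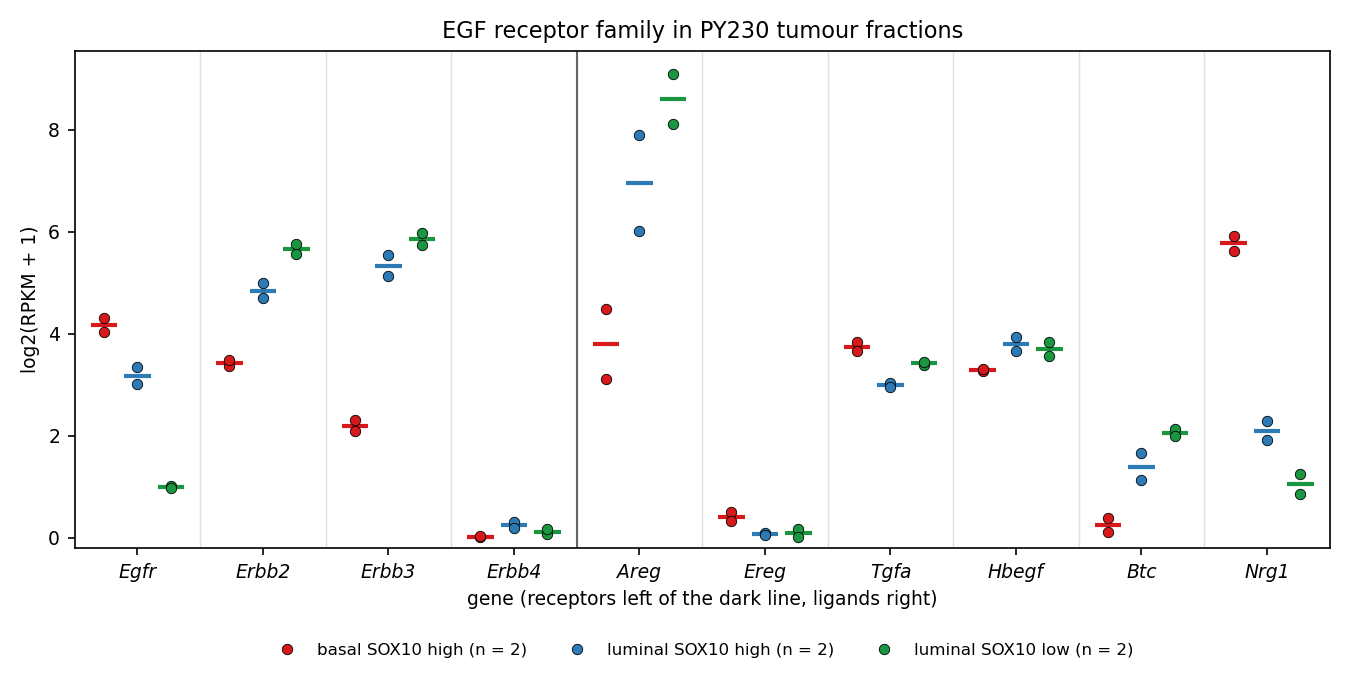
Levels of the 10 members in PY230 tumour fractions as log2(RPKM + 1), each point 1 library and each bar the mean of 2. From basal SOX10 high through luminal SOX10 high to luminal SOX10 low cells, the points of Egfr and Nrg1 lie lower and those of Erbb2, Erbb3 and Areg higher, though Erbb3 and Areg did not pass the test between the luminal fractions.

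In the annotation Erbb2 lies between Pgap3 and Mien1, with Grb7 next, and Mien1 overlaps it on the other strand. The library method marks no strand, so reads from the overlap of Erbb2 and Mien1 cannot be told apart, nor those of Egfr, Ereg, Tgfa and Nrg1 from the antisense RNA genes annotated across them. In PY230 basal against luminal SOX10 high cells Mien1 was lower as well (37.4 and 29.2 against 116 and 91.5 RPKM, fold change -1.61 ± 0.18, adjusted p = 0.000833), as was Pgap3 (-1.31 ± 0.14, adjusted p = 0.000791). Grb7, an adaptor that binds ERBB2 and is often amplified with it in human breast cancer, was at 2.15 and 2.50 RPKM in basal, 21.4 and 22.3 in luminal SOX10 high and 32.6 and 36.7 in luminal SOX10 low cells. Its fold change in the first comparison was -2.78 ± 0.13 (adjusted p = 7.93e-05). In the normal gland Grb7 went another way than Erbb2, with 78.0 to 106 RPKM in both luminal populations and 25.6 to 34.4 in basal cells and fMaSC. Pgap3 and Mien1 were chosen for their place next to Erbb2.

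Among the other ligands, Nrg2, a neuregulin relative, followed Nrg1 across the PY230 fractions at 34.7 and 47.6, 9.34 and 5.46, and 0.728 and 0.85 RPKM. It was higher in luminal SOX10 high than low cells by 2.19 ± 0.26 (adjusted p = 0.00476) and in basal than luminal SOX10 high cells by 2.35 ± 0.26 (adjusted p = 0.000774). Nrg4, a ligand of ERBB4, ran the other way, at 2.31 and 2.71, 5.13 and 8.79, and 18.8 and 20.6 RPKM. It gave -1.42 ± 0.23 (adjusted p = 0.0121) between luminal SOX10 high and low cells. Egf, the founding ligand, was at most 0.472 RPKM in the 6 PY230 libraries and at or below 0.115 in all 8 normal libraries.

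Downstream, most of the 16 ERK feedback and early target genes were higher in basal than in luminal fractions: 10 rose and 3 fell against luminal SOX10 high cells, where 13.8% and 28.2% of all genes did (median 0.74, all genes -0.21), and 13 rose and 2 fell against luminal SOX10 low cells, where 21.8% and 33.4% did (median 1.46, all genes -0.16). In luminal SOX10 high against low cells 5 rose and 1 fell, where 12.6% and 10% of all genes did, and the other 10 did not pass (median 0.57, all genes 0.01). Etv5 stood at 31.5 and 34.9, 14.6 and 9.95, and 3.19 and 2.87 RPKM in the order basal, luminal SOX10 high and luminal SOX10 low, and differed by 3.09 ± 0.19 between the outer fractions (adjusted p = 5.26e-05). Dusp4, a phosphatase that switches off ERK and its relatives, moved against the list, at 6.30 and 7.81, 19.4 and 36.4, and 77.5 and 74.5 RPKM. Spry2 and Phlda1 led the risen genes of the luminal comparison, Spry2 from 7.52 and 10.1 to 53.2 and 25.6 RPKM (1.97 ± 0.35, adjusted p = 0.0145). Hras, a RAS protein gene, was at 132 and 141 RPKM in luminal SOX10 high and 29.8 and 30.3 in luminal SOX10 low cells (2.14 ± 0.13, adjusted p = 0.00123). Immediate early sums were 3172 to 3671, 2860 to 3006 and 3478 to 3523 RPKM in basal, luminal SOX10 high and luminal SOX10 low cells. Of these 10 genes, 3 rose and 1 fell in basal against luminal SOX10 high cells. Against luminal SOX10 low cells 4 rose and 1 fell, and between the luminal fractions 0 rose and 1 fell. Egr1, which is in both lists, had means of 510, 217 and 176 RPKM in the same order. The part of the immediate early genes was not tested. Over the 7 lists the counts of 70 tested were 17 higher and 9 lower in luminal SOX10 high against low cells (12.6% and 10% of all genes), 16 and 14 in basal against luminal SOX10 high cells (13.8% and 28.2%), and 26 and 23 in basal against luminal SOX10 low cells (21.8% and 33.4%).

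In C3-1-TAg tumours the family did not separate SOX10 high from low cells. Sox10 itself was 143 ± 30 RPKM (SD, n = 5) in SOX10 high and 21.8 ± 18 (n = 4) in SOX10 low libraries. None of the 8 members tested was called by limma, none had an unadjusted p under 0.05, and 0.0418% of 11948 genes (5 genes, all higher) were called. Exact two-sided permutation tests of the 5 against 4 libraries, whose smallest possible p is 0.00794, gave adjusted p = 1 for all 10 members. Both tests took the libraries as unpaired, though some lay nearest to a library of the other group. All 8 tested members overlapped between the groups. Erbb2 and Erbb3 varied least: Erbb2 had a lowest, median and highest value of 17.9, 24.9 and 27.1 RPKM in SOX10 high cells and 17.8, 22.9 and 25.6 in SOX10 low cells. Erbb3 gave 12.7, 20.3 and 31.0, and 15.4, 21.4 and 23.4. Their differences were 0.05 ± 0.19 and -0.003 ± 0.24 log2 units. For Egfr, which ranged from 1.71 to 14.6 and from 4.28 to 11.4 RPKM, the difference was -0.16 ± 0.48. Whether these differences depart from those of the PY230 luminal cells was not tested, since the values come from separate tables.

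C3-1-TAg ligands varied widely within each group. Ereg ran from 0.658 to 118 RPKM in SOX10 high libraries (median 3.17) and from 0.151 to 27.8 in SOX10 low libraries (median 4.74), which gives a difference of 0.41 ± 1.3. Tgfa was at 98.8 RPKM in SOX10 high replicate 1 and between 16.4 and 22.7 in the other 4. In the SOX10 low group it was at 192 in replicate 2 and between 13.7 and 30.5 in the other 3. These are the 2 libraries that lay nearest to each other over all genes. Each also had the lowest Hbegf of its group (21.8 and 23.7, against 43.0 to 173 in the other 7) and the lowest Ereg (0.658 and 0.151). Leaving both out, an alternative chosen after the data were seen, the Tgfa difference went from -0.34 ± 0.74 to 0.01, and no member was called. Areg, from 21.5 to 110 and from 45.6 to 110 RPKM, gave -0.56 ± 0.49, and Hbegf -0.44 ± 0.56.

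Nrg1 passed 1 RPKM in just 2 C3-1-TAg libraries, SOX10 high replicate 4 (4.58) and SOX10 low replicate 1 (4.57), and was not tested by limma. SOX10 low replicate 1 also held the most immune RNA, with 8 markers summing to 571.8 RPKM against at most 91.0 in the SOX10 high libraries (Tyrobp 246, at most 7.49 in any other library), and its part in that library's Nrg1 was not tested. Btc was at most 2.36 RPKM and Erbb4 at most 0.23. Erbb2 and Erbb3 together dominated the receptor RNA in both groups: Erbb2 made up 45.3 ± 7.5% (n = 5) and 44.2 ± 4.2% (n = 4) in SOX10 high and low cells, Erbb3 40.0 ± 8.2% and 40.3 ± 2.9%, and Egfr 14.5 ± 7.7% and 15.3 ± 4.8%. In these cells, titled basal, the basal marker sums ran from 96.6 to 1010 RPKM beside luminal keratin sums of 809 to 2248.

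**Figure D4:**
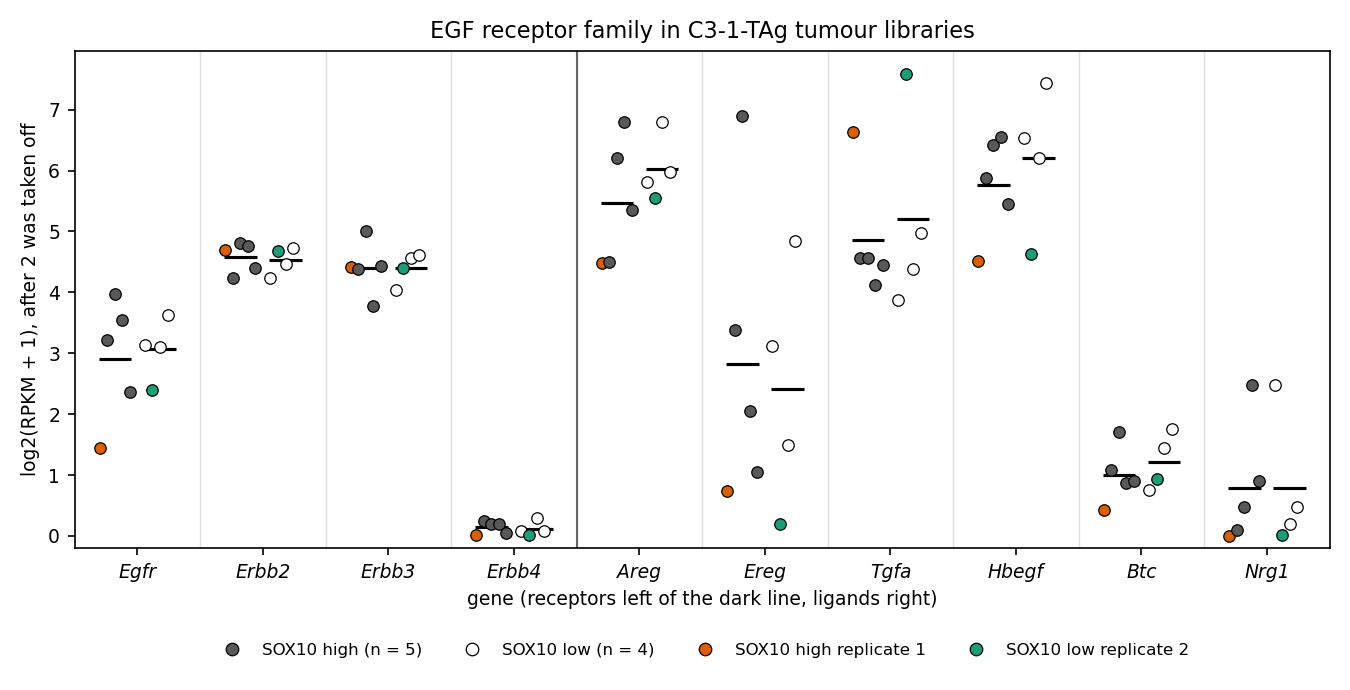
Levels of the 10 members in the 9 C3-1-TAg libraries as log2(RPKM + 1) after 2 was taken off the deposited values, each point 1 library and each bar a group mean. Orange and green mark the nearest pair of libraries, SOX10 high replicate 1 and low replicate 2, which have the highest Tgfa of their groups and the lowest Hbegf.

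Of the 71 pathway genes tested in C3-1-TAg cells limma called none. At an unadjusted p under 0.05 there were 5, beside 3.05% of all 11948 genes tested (365 genes), and nothing is read from so small a number. Ier3, Nrg2, Phlda1 and Irs2 were among the 5 and are named here after their values were seen. Nrg2 was at 2.16, 0.019, 2.53, 2.01 and 4.23 RPKM in SOX10 high and 0.033, 1.09, 0.015 and 0.209 in SOX10 low libraries (1.14 ± 0.44, limma adjusted p = 1.00), with replicate 2 of the high group among the low ones. The ERK feedback list had a median difference of 0.25 (all genes -0.04).

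**Figure D5:**
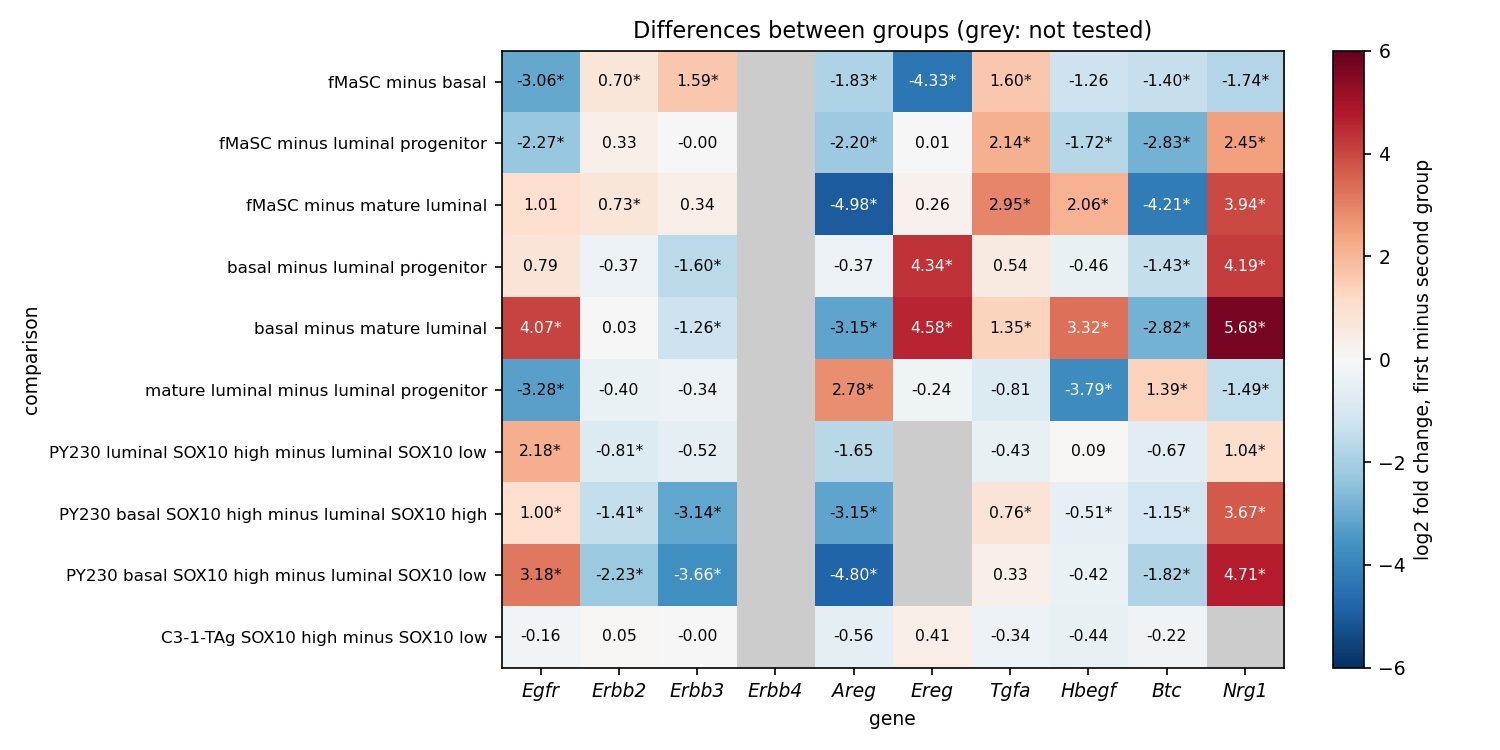
Log2 fold change of each member (columns) in each of the 10 comparisons (rows), first group minus second, on the log2(RPKM + 1) scale, with an asterisk where limma's adjusted p was under 0.05 and grey where the gene was not tested. No cell of the C3-1-TAg row is called, while every member tested in both the normal and the PY230 rows has called cells in each.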

How the data were processed

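RNA of about 2000 sorted cells per library was amplified by SmartSeq2 (18 cycles), tagged with Nextera XT (10 cycles) and read single-end, per the labels' protocols. The authors deposited RPKM values in 3 tables, and the submitters' processing notes name FastQC, HISAT2 2.0.5, StringTie 1.3.1c and the mm9 genome. SmartSeq2 reads carry no molecular identifiers, and depth is unknown. In the C3-1-TAg table no value above 0 lies under 2.001, so 2 was taken off each such value, and 2200 gene symbols were respelled to match.

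A gene was tested where 2 or more libraries (4 or more in the C3-1-TAg table) reached 1 RPKM. Tests ran on the log2(RPKM + 1) scale in limma 3.58.1 (R 4.3.3) with an intensity trend, all groups of a table in one fit, and Benjamini-Hochberg adjustment over all genes tested (threshold 0.05). No replicate number entered this fit. Exact permutation tests covered the C3-1-TAg members, adjusted over 10. The procedure was tested on simulated data. All members are named. Of each pathway list, the called genes with the largest change in a comparison could be named, at most 2 per list, and some are not reported here. The members and the gene and marker lists were chosen with earlier results of these data known. Alternatives were 2 pseudocounts, no filter, quantile and median-of-ratios scaling, no trend, a replicate block, only the groups compared, the C3-1-TAg values as deposited, and each library left out.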

Additional observations from a re-analysis of the deposited data

Results flagged for a closer look

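Tgfa in C3-1-TAg SOX10 high cells held 1 library far from the others: replicate 1 was at 98.8 RPKM, and the next highest of the 5 libraries was at 22.7. Its gap to the next library was 0.82 of the group's range. By Dixon's test, whose limit depends on group size, it alone was marked among 20 groups of members in the C3-1-TAg table. Chance alone marks about 1 in 20. As a ratio to the next library, other values lay further out without being marked. Ereg was at 118 RPKM in SOX10 high replicate 3, with 9.41 next. Tgfa was at 192 in SOX10 low replicate 2, with 30.5 next.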

How the results depend on the processing

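Of 86 member tests, 54 were called: 37 of these calls held in every alternative and 17 were lost in at least 1, while none changed direction. Among the 37 are the Ereg calls of basal cells. Ereg passed the filter through that group alone, so these calls are values only and no support. The same holds for the Btc call in PY230 basal against luminal SOX10 low cells, since Btc passed through the luminal fractions alone. Of the 32 not called, 10 passed in at least 1 alternative. With single libraries left out, the members called ran from 4 to 9 between fMaSC and basal cells (8 with every library), from 3 to 4 between mature luminal cells and luminal progenitors (5), from 1 to 6 between PY230 luminal SOX10 high and low cells (3) and from 5 to 8 between PY230 basal and luminal SOX10 high cells (8). Quantile normalization gave 5 members for the PY230 luminal comparison. As single libraries were left out, calls over all genes changed as well, so these ranges are not read as a trait of the family. The cause of these changes was not tested. Differences that changed sign were small and not called in the main analysis. With a pseudocount of 0.1, Ereg in fMaSC against luminal progenitors was -0.083. Quantile normalization gave -0.26 for Ereg and -0.17 for Erbb2 in fMaSC against luminal progenitors, -0.24 for Erbb3 and -0.14 for Ereg in fMaSC against mature luminal cells, and -0.18 for Erbb2 in basal against mature luminal cells. Median-of-ratios scaling gave -0.074 (Ereg) and -0.019 (Erbb2) in the first comparison, -0.076 (Erbb3) in the second, -0.15 (Erbb2) in the third and 0.037 for Erbb3 in C3-1-TAg cells. Without 1 library, the ranges that crossed 0 were -1.01 to 0.27 for Areg and -1.10 to 0.17 for Hbegf (basal against luminal progenitors), -0.13 to 0.18 for Erbb2 (basal against mature luminal), -0.13 to 0.12 for Erbb3 and -0.27 to 0.29 for Ereg (fMaSC against luminal progenitors), -0.025 to 0.54 for Ereg (fMaSC against mature luminal) and -0.051 to 0.24 for Hbegf (PY230 luminal). In C3-1-TAg cells they were -0.42 to 0.21 for Egfr, -0.045 to 0.14 for Erbb2, -0.15 to 0.15 for Erbb3, -0.61 to 1.22 for Ereg and -0.78 to 0.45 for Tgfa, which was 0.01 without both SOX10 high replicate 1 and low replicate 2, an alternative chosen after seeing the data.

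Same-numbered libraries did not deviate together throughout (r between 0.000386 and 0.221 for normal libraries, -0.265 and 0.295 for PY230 and -0.338 and 0.203 for C3-1-TAg), so the numbers were not taken to pair them. Some differently numbered C3-1-TAg libraries did deviate together. These were SOX10 high replicate 1 with low replicate 2 (r = 0.824) and high replicate 2 with low replicate 3 (r = 0.697). No C3-1-TAg test paired them. A replicate block lost no call and gained 3, with 9, 6, 7, 4, 8 and 5 members called in the 6 normal comparisons, 4, 8 and 6 in the PY230 comparisons and 0 in the C3-1-TAg one. Crossed numbers, also chosen after seeing the data, gave 5 and 6 members in the 2 PY230 comparisons with luminal SOX10 low cells.

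Over all genes, the calls in basal cells against luminal progenitors were 4455 and 1373 with those groups alone, in basal against mature luminal cells 6099 and 3284, and in PY230 luminal cells 2974 and 1908 (1826 with no filter). Leaving out 1 library took them as low as 3847 of 6349 in fMaSC against luminal progenitors, 2529 in basal cells against luminal progenitors, 3650 in basal against mature luminal cells, 954 of 2770 in mature luminal cells against luminal progenitors, 461 in PY230 luminal cells and 3451 of 5513 in PY230 basal against luminal SOX10 high cells. In C3-1-TAg cells the 5 calls became 2 with a pseudocount of 0.1, 3 with values as deposited, 0 with no filter or the block, and 0 to 11 without 1 library. Genes higher and lower in fMaSC were 4628 and 2941 against basal cells, and 3718 and 3809 after quantile normalization. Against luminal progenitors they were 4461 and 1888, then 3089 and 3142, and against mature luminal cells 5231 and 1849, then 3346 and 3246. In basal against mature luminal cells the same counts were 3611 and 2488, then 2964 and 3389. In mature luminal cells against luminal progenitors they were 1083 and 1687, then 1458 and 1490, and in PY230 basal against luminal SOX10 high cells 1814 and 3699, then 2383 and 2780. Basal cells against luminal progenitors gave 2641 and 1814, then 2242 and 2339. RPKM without read totals limits what can be said of Erbb4 and other genes near 0.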
